A study of Mus musculus with 6 samples.

Results

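Long skipped exons are internal exons of at least 300 nucleotides (nt) that some messenger RNAs of a gene carry and others leave out. They were taken from the skipped-exon table of a sequencing study of mouse small intestinal crypt cells, as every exon of 300 nt or more with a mean of at least 20 reads over the 6 libraries. This gave 1426 exons in 1222 genes, out of 31346 exons of any length with that many reads. The table lists an exon once for each pair of neighbouring exons it was tested with, so the 1426 exons come from 1751 of 37725 such events, and merging overlapping exons leaves 1346 separate stretches on 21 chromosomes. No measured difference entered the choice of the exons.

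The study compared 3 WT with 3 PTBP1_KO libraries from C57BL/6 mice aged 60 days. WT mice carried Ptbp1f/f, a floxed allele of the gene for polypyrimidine tract-binding protein 1, and PTBP1_KO mice carried Ptbp1f/f;Vil-creER+/-, which adds a tamoxifen-dependent Cre recombinase under villin control that cuts the allele in intestinal epithelium and not in the blood or stromal cells of the preparation. Tamoxifen was given to all mice on 2 days at 100 mg/kg, with sampling 20 h after the last dose, so the controls carry the floxed alleles and the drug as well. Crypts were freed with 2 mM EDTA after the villi had been scraped away and passed through a 70 µm strainer, and polyadenylated RNA was sequenced with a stranded kit. The splicing table sets 3 libraries, its first set, beside 3 others, its second set, and its headers name the genotype of neither. Every splicing difference below is therefore first set minus second set and carries no direction by genotype. For the same reason values are given for each library, with no mean and SD, and the only tests are those in the authors' deposited table. Nothing in the labels ties each library to its own mouse, so these tests may measure technical spread.

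In most mammalian genes the splicing machinery recognises an internal exon as a unit: U1 snRNP at its end and U2AF at the pyrimidine tract before its start pair across the exon, which works most readily when the exon is short. Long internal exons are uncommon, and many of those that are optional encode flexible stretches of scaffold, cytoskeletal or membrane-shaping proteins that are used in nerve or muscle and skipped elsewhere. PTBP1 binds CU-rich RNA such as UCUU, CUCU and UUCU and is best known for repressing exons that nerve or muscle cells use. Its relative PTBP2 replaces it in developing neurons. An exon of coding sequence whose length is a multiple of 3 adds amino acids without shifting the reading frame, whereas other optional exons can bring in an early stop codon and send the RNA to nonsense-mediated decay.

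The exons the results turn on are shown first as sequence, read from GENCODE M21 transcripts on mouse build GRCm38, which is mm10. For each exon the first 150 nt are given 5′ to 3′, with capitals marking TCTT, CTCT or TTCT, the DNA spelling of those PTBP1-type words, and overlapping matches run together. The 2 reticulon exons, the Wnk1 exon and the Spata13 exon are shown because they are coding throughout, the Ccdc88c exon because it ends the reading frame, and the Arhgef1 exon because it lies in an RNA that keeps introns.
Ccdc88c exon of 439 nt, chr12:100925501-100925650, minus strand: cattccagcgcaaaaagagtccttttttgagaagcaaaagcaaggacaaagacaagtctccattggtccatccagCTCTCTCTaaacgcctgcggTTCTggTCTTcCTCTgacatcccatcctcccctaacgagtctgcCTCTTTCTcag
Rtn4 exon of 2361 nt, chr11:29706410-29706559, plus strand: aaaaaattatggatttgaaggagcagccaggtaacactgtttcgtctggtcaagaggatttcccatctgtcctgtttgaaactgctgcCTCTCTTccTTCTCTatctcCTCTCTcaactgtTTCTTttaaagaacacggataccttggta
Wnk1 exon of 462 nt, chr6:119954083-119954232, minus strand: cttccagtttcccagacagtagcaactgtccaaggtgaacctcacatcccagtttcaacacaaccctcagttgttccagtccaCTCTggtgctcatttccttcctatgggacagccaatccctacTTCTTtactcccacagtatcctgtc
Rtn3 exon of 2124 nt, chr19:7458274-7458423, minus strand: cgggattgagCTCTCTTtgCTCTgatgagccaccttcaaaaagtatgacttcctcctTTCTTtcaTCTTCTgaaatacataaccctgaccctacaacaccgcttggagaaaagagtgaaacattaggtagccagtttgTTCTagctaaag
Spata13 exon of 366 nt, chr14:60706714-60706863, plus strand: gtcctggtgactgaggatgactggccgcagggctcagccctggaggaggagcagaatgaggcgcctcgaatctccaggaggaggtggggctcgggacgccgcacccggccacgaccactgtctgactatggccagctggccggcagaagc
Arhgef1 exon of 832 nt, chr7:24918520-24918669, plus strand: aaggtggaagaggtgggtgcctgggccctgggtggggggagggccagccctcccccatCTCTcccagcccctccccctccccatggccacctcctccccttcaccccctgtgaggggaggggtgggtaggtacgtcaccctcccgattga

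Skipping joins the exon before to the exon after, and reads across that join are the only evidence for skipping. The joined sequences below give the last 30 nt of the upstream exon in lower case and the first 30 nt of the downstream exon in capitals. Each lies in coding sequence.
Ccdc88c skipping junction: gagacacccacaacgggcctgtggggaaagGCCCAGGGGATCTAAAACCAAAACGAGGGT
Rtn4 skipping junction: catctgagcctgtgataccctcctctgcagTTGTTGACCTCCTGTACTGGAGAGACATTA
Wnk1 skipping junction: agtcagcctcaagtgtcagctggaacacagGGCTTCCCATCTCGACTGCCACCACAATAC
Rtn3 skipping junction: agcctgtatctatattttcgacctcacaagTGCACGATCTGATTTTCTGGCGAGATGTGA
Spata13 skipping junction: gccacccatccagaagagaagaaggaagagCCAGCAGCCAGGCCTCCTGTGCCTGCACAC
Arhgef1 skipping junction: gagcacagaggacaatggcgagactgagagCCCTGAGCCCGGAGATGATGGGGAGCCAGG

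The 1426 exons had a median length of 502.5 nt, with the middle part of the distribution between 370 nt and 874 nt (25th and 75th percentiles) and a maximum of 8367 nt. Most were nearly always included. Inclusion is the estimated share that carries the exon among transcripts that carry it or skip it between the given pair of neighbouring exons. The value can therefore differ between the events of an exon. Inclusion had a median of 98.9% over the 6 libraries together, against 99.4% for the 29920 shorter exons. It exceeded 90% in 1170 long exons (82.0%), lay between 10% and 90% in 173 (12.1%) and was under 10% in 83 (5.82%). Among shorter exons these shares were 81.8%, 9.41% and 8.81%. The exons with most reads were all but constitutive: the 389-nt exon of Dmbt1, a secreted mucosal defence protein, the 334-nt exon of Rps2, a protein of the small ribosomal subunit, and the 303-nt exon of Ybx1, an RNA-binding cold-shock protein, were each at 100% in every library after rounding.

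Long exons differed from shorter ones in what they encode. The whole exon was coding in 728 (51.1%, against 81.6% of shorter exons), and part of it in 312 (21.9%, against 4.66%). A start codon lay in 328 of the long exons (23.0%) and in 5.61% of the shorter. A further 96 (6.73%) held coding sequence of transcripts marked in the annotation for nonsense-mediated decay, and 23 (1.61%) lay in the untranslated part of such transcripts. Another 214 (15.01%) belonged to non-coding transcripts, which include RNAs with a retained intron, 38 (2.66%) were untranslated in protein-coding transcripts, and 15 matched no annotated exon. In 193 long exons (13.5%), but only 0.227% of shorter ones, an annotated intron lies inside the exon, and 835 (58.6%, against 38.2%) overlap the first or last exon of another transcript. Reads in those exons can come from other transcripts of the gene. The length was a multiple of 3 in 40.7% of long exons, and in 343 of the 728 wholly coding ones (47.1%), against 41.4% of shorter coding exons. These shares describe the annotation and the table, and no test was run on them.

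Inclusion differed between the annotation groups. Wholly coding exons had a median of 99.2% and partly coding exons one of 98.7%, with 2.88% and 1.28% of them under 10%. Exons with coding sequence of decay transcripts had a median of 94.9%, and 22 of the 96 (22.9%) were under 10%. The 23 untranslated exons of decay transcripts had a median of 51.7% with 26.1% under 10%. Non-coding transcript exons had a median of 98.7% with 9.35% under 10%, and the 38 other untranslated exons had a median of 78.5% with 21.1% under 10%. Rarely included long exons were thus a larger share of the decay and untranslated exons than of the coding ones.

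**Figure D1:**
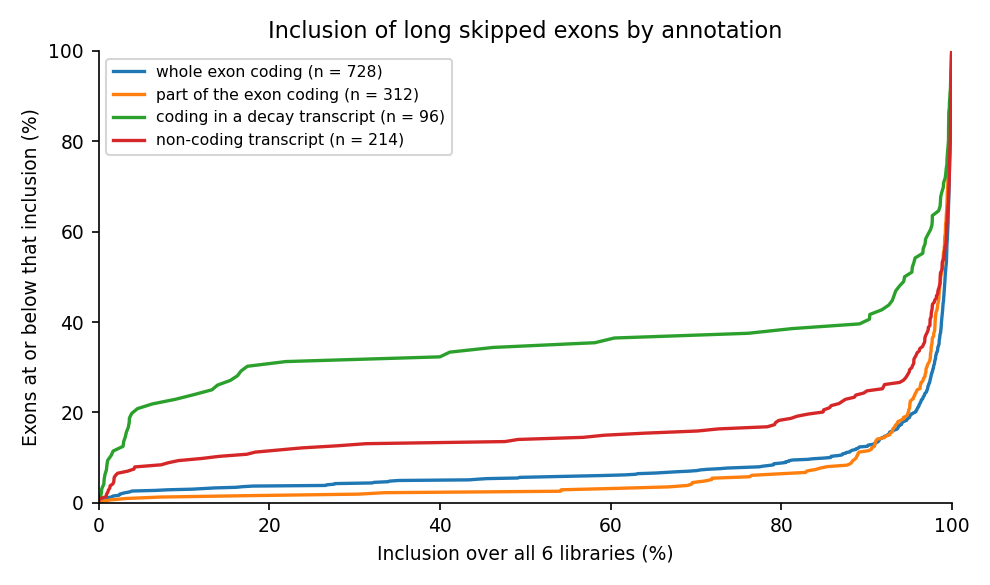
Cumulative share of long skipped exons (vertical axis, %) at or below each inclusion level over all 6 libraries (horizontal axis, %), with 1 line for each of 4 annotation groups. The line for coding exons of decay transcripts has 22.9% of its exons under 10% inclusion, whereas the line for wholly coding exons has 2.88%.

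Skipping was thinly sampled. The median long exon had 449.9 reads a library, and the 6 libraries had medians of 377 to 525.5 reads an exon, yet the median number of skipping reads was 4 over all libraries together, and 1141 exons (80.0%) had fewer than 30. Shorter exons were much alike in this, with a median of 5 skipping reads and 75.8% under 30. Reads within the exon count as inclusion, and the table divides them by the exon's effective length, which is the length plus 144, while skipping reads are divided by 144. One skipping read therefore weighs as much as 1.69 inclusion reads at 100 nt, 3.08 at 300 nt and 17.4 in the 2361-nt exon of Rtn4. A handful of skipping reads can shift the inclusion of a very long exon a long way, so the skipping reads are given beside most of the called exons below.

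Between the sets, 35 of the 1426 long exons (2.45%, exact 95% binomial interval 1.72 to 3.40%, counting error over exons only) in 34 genes differed in the authors' deposited table, at an FDR below 0.05 and an absolute inclusion difference of at least 0.1, that is 10 percentage points. The same call was made for 1.91% of all exons and 1.89% of those under 300 nt, both within that interval. Inclusion was higher in the first set in 20 long exons (1.4%, against 1.24% of all exons and 1.24% of shorter ones) and higher in the second set in 15 (1.05%, against 0.667% and 0.648%). The share higher in the first set was 57.1%, with an exact interval of 39.4 to 73.7%. By the FDR alone 4.84% of long exons passed, against 4.3% of all and 4.27% of shorter exons. The 3 libraries of one set lay wholly above those of the other in 118 long exons (8.27%), against 8.76% of all exons and 8.79% of shorter ones. The median absolute difference was 0.008 in long and 0.005 in shorter exons. By these counts long exons as a class lay near the background.

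The called share varied with length without a steady trend. It was 9.20% for exons of up to 30 nt, 2.13% from 31 nt to under 100 nt, 1.48% from 100 nt and 1.64% from 200 nt. Among long exons it was 3.11% from 300 nt to under 500 nt (22 of 708, exact 95% interval 1.96 to 4.67%), 1.44% to under 1000 nt (6 of 416, 0.531 to 3.11%) and 2.32% from there on (7 of 302, 0.937 to 4.72%). The intervals of the 3 long classes overlap each other. Just outside the length limit, 79 exons from 290 nt had a median inclusion of 99.2% with 2 called, and just inside it, 91 exons of under 310 nt had one of 98.4% with 3 called. Just outside the read limit, 12 long exons with a mean of 15 to under 20 reads had a median inclusion of 62.2% with 0 called, and just inside it, 19 with under 25 reads had one of 90.4% with 3 called.

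**Figure D2:**
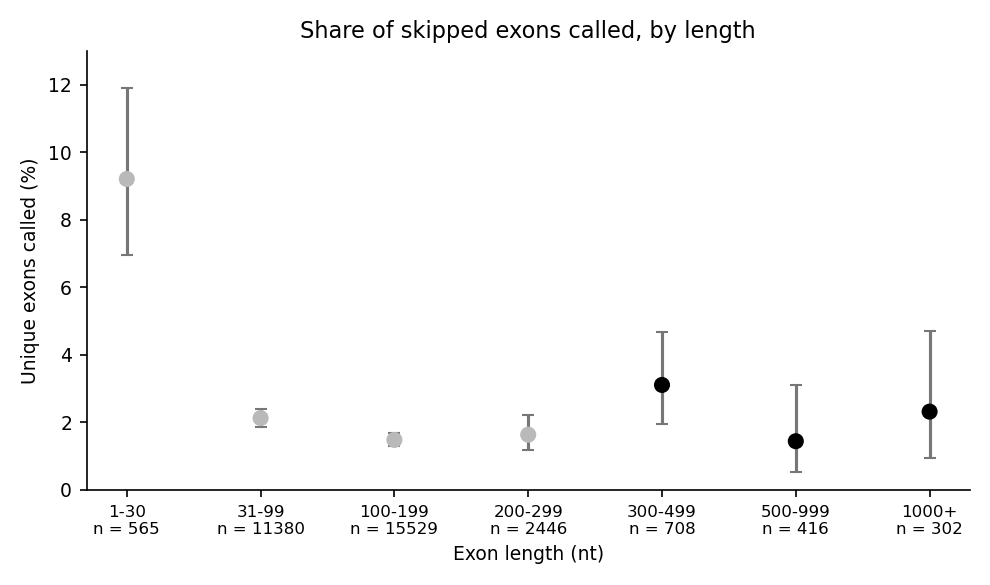
Share of unique skipped exons called (vertical axis, %) in 7 classes of exon length (horizontal axis, nt, with the number of exons), with bars for exact 95% binomial intervals. Grey points are exons under 300 nt and black points the long exons, which lie at 3.11%, 1.44% and 2.32%, while exons of up to 30 nt lie at 9.20%.

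In their called events, 32 of the 35 called exons had an inclusion between 10% and 90%. A minimum difference of 0.1 itself favours that range, so this is no separate result. In the event with most reads, several lay outside it: both Rtn3 exons (0.397% and 0.427%), Epb41l3 (1.06%), Kcne3 (98.6%) and Trim40 (98.8%). Those of Naip3, Sbno2 and Slco2b1 stayed between 10% and 90% there. Within that range 18.5% of long and 16.3% of shorter exons were called, each called exon again placed by its called event. The calls rested on unequal evidence: 19 of the 35 had at least 30 skipping reads and 16 had fewer, the sets did not overlap in 17 of the former and 9 of the latter, and 17 of the 35 had at least 1 library with no skipping read. By annotation 11 called exons were wholly coding, 8 partly coding, 6 held coding sequence of decay transcripts, 2 lay in the untranslated part of decay transcripts (Cyb5rl and Gm50253), 5 were in non-coding transcripts, 2 untranslated and 1 unannotated. In that order, these were 1.51%, 2.56%, 6.25%, 8.70%, 2.34%, 5.26% and 6.67% of the long exons of each group, against 2.45% of all long exons. The length was a multiple of 3 in 8 of the 11 wholly coding exons, against 47.1% of all wholly coding long exons. These were all 5 that were higher in the first set (Rtn4, Wnk1, Prrc2b, Epb41l1 and Cd6) and 3 of the 6 that were higher in the second (both Rtn3 exons and Spata13). No test was run on these few exons. The exons of G2e3, Edc3 and Abhd5 do not keep the frame. An annotated intron lay inside 4 of the 35 called exons (11.4%), and 17 (48.6%) overlapped the first or last exon of another transcript. Among all long exons these shares were 13.5% and 58.6%. The 17 lie in Abhd5, Arhgef1, Cyb5rl, D330041H03Rik, Edc3, Epb41l3, Glipr1, Gm50253, Kcne3, Mpv17, Rbm4, Sbno2, Sfi1, Spata13, Trim40, Wnk1 and Zfp62.

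**Figure D3:**
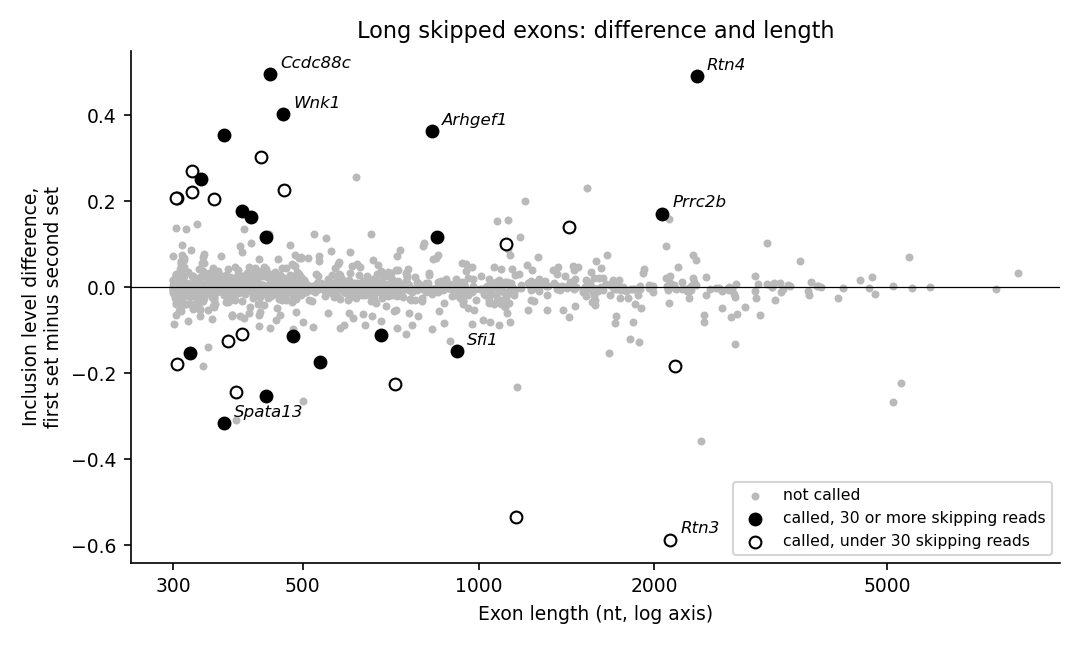
Inclusion level difference of each of the 1426 long exons, first set minus second set (vertical axis), from the authors' deposited table, against exon length (horizontal log axis, nt). Grey points were not called, filled points were called with at least 30 skipping reads, and open points were called with fewer; most points lie near 0, with Ccdc88c and Rtn4 highest at 0.496 and 0.491 and an Rtn3 exon lowest at -0.587.

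Reticulons are membrane proteins that bend the tubules of the endoplasmic reticulum, and their long forms carry a large extra segment from a single optional exon. Rtn4 encodes the Nogo proteins. Its 2361-nt exon (chr11:29706410-29708770, plus strand), coding throughout, belongs to Nogo-A, the long form known from neurons. Inclusion was 86.0%, 92.6% and 83.2% in the first set and 50.9%, 30.1% and 33.4% in the second. All first-set libraries lay above all second-set libraries, and the authors' deposited table lists a difference of 0.491 with an FDR of 1.54e-12. Skipping reads were few, at 7, 6 and 17 against 7, 14 and 14, but inclusion reads separated the sets by themselves, at 749, 1312 and 1467 against 126, 105 and 122. The summed level of the gene was 25.2 FPKM in WT and 21.8 FPKM in PTBP1_KO in the authors' deposited table, so the reads of this exon differed far more between the sets than the gene's level did between the genotypes. Those are separate comparisons, since the sets have no named genotype.

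Rtn3 has the matching long exon, of 2124 nt (chr19:7456300-7458423, minus strand), and a 1161-nt version that shares its 3′ end and most of its reads. The longer one gave the largest difference of all long exons, in the opposite direction to Rtn4: inclusion was 36.4%, 31.4% and 16.6% in the first set and 60.4%, 100% and 100% in the second, with a deposited difference of -0.587 and an FDR of 2.26e-05 in the authors' table. That difference rests on 4, 5 and 15 skipping reads against 1, 0 and 0. With 3 skipping reads assumed in each library that had fewer, the second set fell to 33.7%, 36.4% and 40.4%, its lowest library no longer lay above the first set, and the difference shrank to -0.09. Another pair of neighbouring exons gathered 3219 skipping reads. Tested with that pair, the same exon had an inclusion of 0.397%, with 0.298% to 0.500% in each library and a difference of 0.001. The 1161-nt version behaved alike, with a deposited difference of -0.534 in the authors' table in one event and 0.001 in the other. By the junctions with most reads the long Rtn3 exon was rare in these cells, and it was called with 1 pair of neighbours and not with the other.

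Ccdc88c encodes DAPLE, a scaffold that binds Dishevelled and activates G proteins. Its 439-nt exon (chr12:100925212-100925650, minus strand) codes for 164 nt and then meets a stop codon, in a transcript annotated as protein-coding. Whether RNAs with the exon make a protein with a different end or go to nonsense-mediated decay was not tested. Inclusion was 56.5%, 58.9% and 58.8% in the first set and 9.42%, 7.70% and 8.19% in the second. The libraries of each set lay close together and far from the other set, with a deposited difference of 0.496 and an FDR that the authors' deposited table lists as 0. Both forms were well covered, with 2192 inclusion and 1075 skipping reads. The gene's level was 21.9 FPKM in WT and 32.8 FPKM in PTBP1_KO in the authors' deposited table (p-value 0.0204, q-value 0.747).

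Spata13 and Arhgef1 encode guanine nucleotide exchange factors. The 366-nt Spata13 exon (chr14:60706714-60707079, plus strand) is coding throughout and keeps the frame. Its inclusion was 75.6%, 57.6% and 62.3% in the first set and 100%, 90.6% and 100% in the second, and the authors' deposited table lists a difference of -0.317 with an FDR of 1.74e-09. Its skipping reads were 4, 16 and 13 against 0, 2 and 0, and the difference was -0.235 when libraries with fewer than 3 were set to 3. Of its length, 317 nt overlap the first or last exon of another transcript. The 832-nt Arhgef1 exon (chr7:24918520-24919351, plus strand) went the other way, at 77.3%, 70.8% and 80.9% against 42.1%, 40.5% and 37.6%. The deposited difference of 0.363 has an FDR listed as 0 in the authors' table, and the event had 858 skipping reads. This exon occurs in an annotated transcript with a retained intron and spans 2 annotated introns, so its reads can come from incompletely spliced RNA as well as from an alternative exon.

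Wnk1 encodes a kinase that controls sodium and chloride transport and cell volume and is rich in optional exons. Its 462-nt exon (chr6:119953771-119954232, minus strand) is coding throughout and keeps the frame. Inclusion was 44.2%, 41.9% and 59.4% in the first set and 8.23%, 9.84% and 6.54% in the second, a deposited difference of 0.403 with an FDR listed as 0 in the authors' table. The sets were far apart with 628 skipping reads behind them. All 462 nt overlap the first or last exon of another annotated transcript, whose reads could be counted here too, and the gene's level was 42.8 FPKM in WT and 46.9 FPKM in PTBP1_KO in the authors' deposited table.

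**Figure D4:**
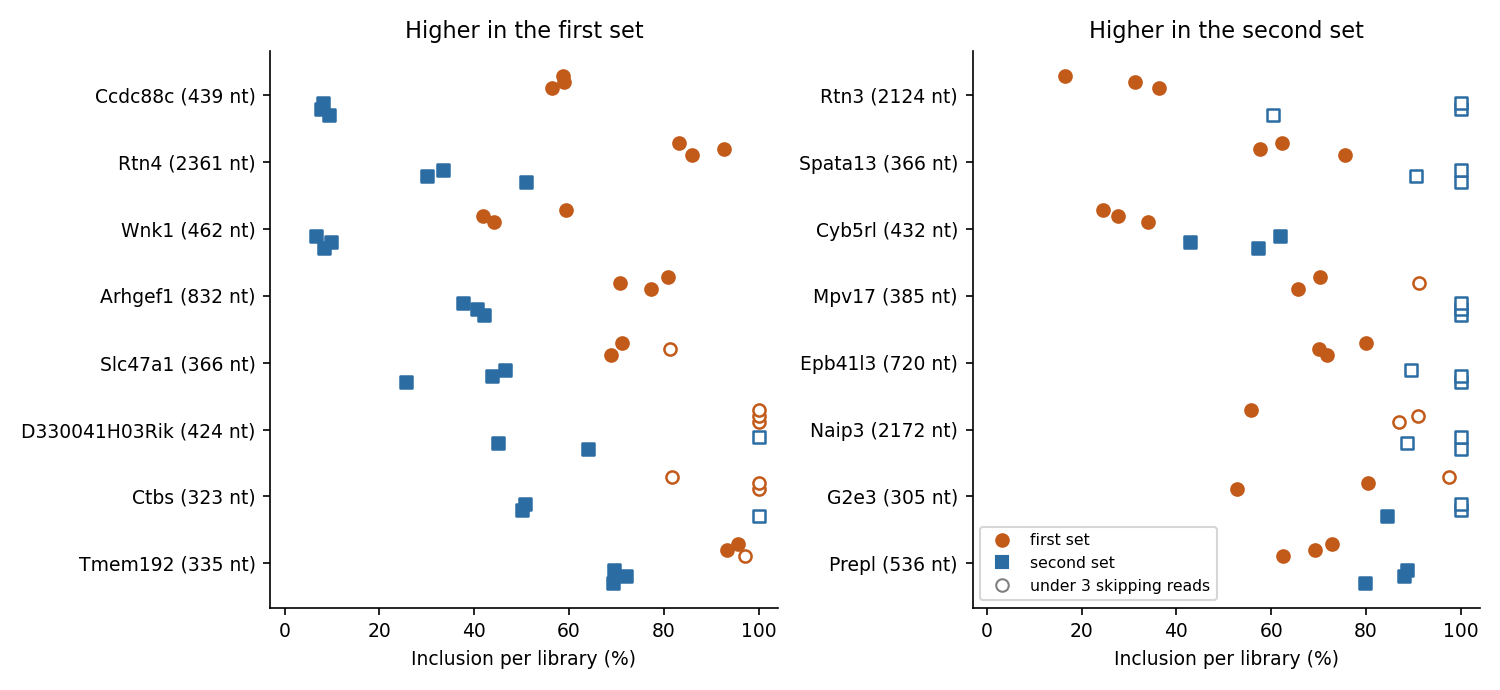
Inclusion of the called long exons with the largest differences (horizontal axis, % in each library), 1 exon a gene and 8 in each direction; circles are the 3 libraries of the first set, squares those of the second, and open symbols have under 3 skipping reads. Ccdc88c, Rtn4, Wnk1 and Arhgef1 separate the sets with filled symbols only, whereas D330041H03Rik, Ctbs, Naip3 and G2e3 overlap.

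Slc47a1 encodes MATE1, which exports organic cations. Its 366-nt exon carries only 9 coding nt in a decay transcript, and inclusion was 68.8%, 81.4% and 71.3% in the first set and 25.5%, 43.7% and 46.5% in the second. The authors' deposited table gives a difference of 0.353 with an FDR of 0.00336, from 52 skipping reads, and the thinnest library had 15 reads in all. Slco2b1 encodes an uptake carrier for organic anions. Its 305-nt exon was at 59.8%, 70.4% and 66.1% against 50.6%, 42.2% and 41.1%, with no overlap of the sets and a deposited difference of 0.208 (FDR 0.0384 in the authors' table). With the neighbours that gave most reads it was at 28.0% over all libraries, with a difference of 0.08 and an FDR of 0.369, which is not a call.

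Kcne3 encodes a small subunit that keeps the potassium channel of chloride-secreting crypt cells open. Its called 393-nt exon (chr7:100182682-100183074, plus strand) is untranslated, and an annotated intron lies inside it. Inclusion was 87.0%, 93.9% and 91.3% in the first set and 70.4%, 73.9% and 74.6% in the second, a deposited difference of 0.178 with an FDR listed as 0 in the authors' table, and 530 skipping reads make it one of the best covered of the called exons. In its other event the exon was at 98.6% with a difference of 0.018. The call holds for 1 pair of neighbours and not for the other.

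Protein 4.1 family members link membrane proteins to the spectrin and actin skeleton, and a called long exon occurred in 2 of them. The 408-nt exon of Epb41l1, coding and in frame, was at 36.6%, 29.6% and 42.0% in the first set and 18.5%, 20.1% and 20.7% in the second, with a deposited difference of 0.163 (FDR 0.0107 in the authors' table) and no overlap. The 720-nt exon of Epb41l3, which matches no annotated exon end to end, appears in 6 events. The called one had 71.8%, 70.1% and 80.0% against 100%, 100% and 89.5%, a deposited difference of -0.225 in the authors' table on 25 skipping reads. Across the 6 events its inclusion over all libraries ran from 1.06% to 82.1% and the difference from -0.225 to 0.145, so no single inclusion level or direction describes this exon.

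Called exons with coding sequence of decay transcripts numbered 6. Tmem192, a protein of the lysosomal membrane, gave the firmest case: its 335-nt exon (chr8:64964198-64964532, plus strand), with 257 coding nt, was at 97.2%, 93.4% and 95.7% in the first set and 69.3%, 72.0% and 69.6% in the second. The deposited difference was 0.251 with an FDR of 3.74e-14 in the authors' table, on 2, 5 and 4 against 28, 29 and 35 skipping reads. The sets were narrow and did not overlap, while the gene's level was 19.1 FPKM in WT and 19.5 FPKM in PTBP1_KO in the authors' deposited table. The exons of Ctbs, a lysosomal glycosidase (100%, 100% and 81.7% against 100%, 50.1% and 50.7%, on 12 skipping reads), and of Alg13, an enzyme of protein N-glycosylation (100% in each first-set library against 79.1%, 100% and 59.2%, on 7), overlapped between the sets. Nmrk1, a nicotinamide riboside kinase, was at 16.6%, 8.97% and 11.2% against 21.2%, 15.5% and 34.1% with 155 skipping reads, again with overlap. The 1430-nt exon of Sbno2, a transcriptional coregulator, was at 100% in each first-set library against 73.7%, 88.0% and 96.3%, on 9 skipping reads, and at 17.7% with a difference of 0.026 in the event with most reads. Slc47a1, above, is the other member of this group.

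Prrc2b, a large protein with proline-rich disordered regions, has a 2061-nt coding exon in frame (chr2:32212887-32214947, plus strand). Its inclusion was 46.1%, 59.0% and 50.5% in the first set and 28.8%, 33.1% and 42.5% in the second, without overlap and with 215 skipping reads, and the deposited difference is 0.171 (FDR 0.0107 in the authors' table). Edc3, which promotes removal of the mRNA cap, has a 320-nt exon at 53.6%, 68.3% and 70.8% against 74.9%, 86.7% and 76.7%, with a difference of -0.152 in the authors' deposited table and 184 skipping reads. The 682-nt exon of Rbm4, a splicing regulator, was at 75.4%, 64.0% and 61.3% against 74.6%, 83.6% and 76.2%, so the sets overlapped, with a deposited difference of -0.112 in the authors' table. The same exon is listed a second time under the gene name Gm21992, where the difference was 0.04 with an FDR of 0.0125 in the authors' table. That difference has the opposite sign and lies below the limit of 0.1. The zinc finger genes Zfp62 and Zfp507 had a 432-nt untranslated exon at 14.04%, 20.4% and 24.1% against 5.45%, 8.22% and 9.85%, and a 323-nt exon at 100%, 85.4% and 95.4% against 63.3%, 82.7% and 68.3%. The Zfp62 exon had 469 skipping reads and the Zfp507 exon only 16.

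The remaining exons higher in the second set belong to genes of varied function. Cyb5rl, a cytochrome b5 reductase-like protein, had a 432-nt exon (chr4:107070116-107070547, plus strand) at 34.02%, 27.7% and 24.5% against 57.3%, 42.9% and 61.9%, with 136 skipping reads and a difference of -0.253 in the authors' deposited table. Its other event, which was not called, was at 97.6% with a difference of 0.038. Prepl, a serine hydrolase, had a 536-nt exon at 62.4%, 69.2% and 72.9% against 79.8%, 88.0% and 88.7%, with 127 skipping reads and a difference of -0.173 in the authors' deposited table. Sfi1, a centrosomal protein, had a 917-nt exon at 71.6%, 71.3% and 70.5% against 89.5%, 89.98% and 78.6%, with a difference of -0.149 in the authors' deposited table and 86 skipping reads. That exon occurs in an annotated transcript with a retained intron and spans 1 annotated intron, so its reads can come from incompletely spliced RNA. Of its length, 611 nt also overlap the first or last exon of another transcript. In the called events of Cyb5rl, Prepl and Sfi1 the sets did not overlap. Abhd5, a coactivator of triglyceride breakdown, was at 90.01%, 81.4% and 86.7% against 97.6%, 98.0% and 100% on 25 skipping reads. All 373 nt of this exon overlap the first or last exon of another transcript. Mpv17, a protein of the inner mitochondrial membrane, was at 65.6%, 91.2% and 70.2% against 100% in each second-set library, on 10 skipping reads, none of them in the second set. The exons of G2e3, a ubiquitin ligase (52.9%, 80.4% and 97.6% against 84.5%, 100% and 100%), of Naip3, in a transcript annotated as non-coding (87.0%, 91.0% and 55.8% against 100%, 88.7% and 100%), and of Glipr1 (100%, 91.2% and 69.0% against 100%, 100% and 92.5%) overlapped between the sets. Their skipping reads were 27 for G2e3, 9 for Naip3 and 17 for Glipr1.

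The remaining exons higher in the first set were mostly thinly covered. The 848-nt exon of Trim40, a ubiquitin ligase of the gut, was the exception with 222 skipping reads, at 85.4%, 81.3% and 80.6% against 65.5%, 75.7% and 71.2%. In its event with most reads it was at 98.8% with a difference of 0.014. D330041H03Rik, a non-coding RNA, had 12 skipping reads and was at 100% in each first-set library against 64.0%, 44.96% and 100%. Its other event, which was not called, was at 96.1% with a difference of -0.029. Oas1c, of the oligoadenylate synthetase family, had 7 skipping reads and was at 80.1%, 100% and 100% against 70.3%, 78.0% and 64.0%. Gm50253, whose exon is untranslated in a decay transcript, had 13 and was at 100%, 100% and 93.7% against 92.0%, 80.4% and 91.0%. Cd6, a surface receptor of T cells, had 13 and was at 100%, 93.5% and 100% against 50.8%, 80.7% and 100%. Its gene was at 0.892 FPKM in WT and 1.13 FPKM in PTBP1_KO in the authors' deposited table with a q-value of 0.9998. Lymphocyte markers are given with the gene levels, and the part of lymphocyte RNA in this value was not tested.

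Several checks bear on the calls as a group. Of the 35 called exons, 11 fell below a difference of 0.1 when every library with fewer than 3 skipping reads was given 3, which is what a count that low allows. The 24 that remained were 16 higher in the first set and 8 in the second. The floor moved both Rtn3 exons most, and the Oas1c difference fell from 0.226 to -0.0038. Ccdc88c, Rtn4, Wnk1 and Arhgef1 did not move. Separately, 11 called exons appear in more than 1 event, and 8 of these, in 7 genes (Epb41l3, Kcne3, Naip3, Rtn3, Sbno2, Slco2b1 and Trim40), were not called in the event with most reads. The rest of the 11, in Cyb5rl, D330041H03Rik and Rbm4, were not called in their other event either. Their differences there were 0.038, -0.029 and 0.04, each opposite in sign to the called event. Leaving out 1 library at a time brought 11 of the 35 under a difference of 0.1. Without first-set library 1 the difference of G2e3 was -0.06 and that of Edc3 -0.099. Without first-set library 3 it was -0.07 for Naip3, -0.02 for Glipr1, -0.08 for Rbm4 and 0.094 for Zfp62. Without second-set library 1 it was 0.07 for Cd6, 0.08 for Sbno2 and 0.09 for Trim40. It was 0.06 for Gm50253 without second-set library 2, and -0.06 for Nmrk1 without second-set library 3. Alg13 and D330041H03Rik stayed past the limit but moved by over 1.5 times, to 0.105 without second-set library 3 and 0.18 without second-set library 2.

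**Figure D5:**
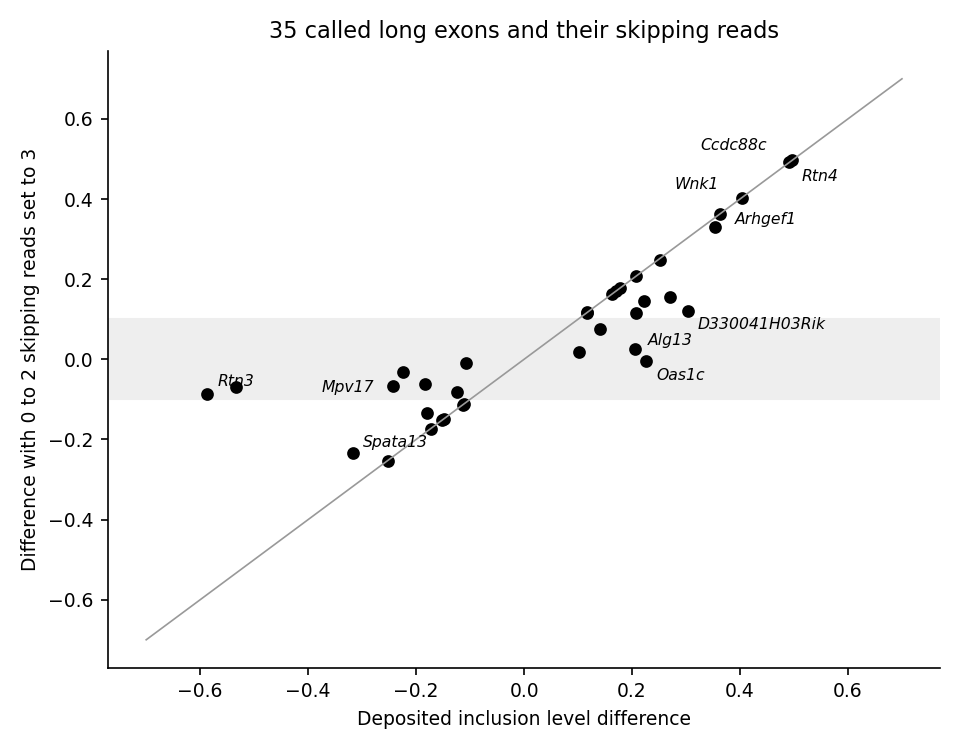
Inclusion level difference of the 35 called long exons with every library of 0 to 2 skipping reads set to 3 (vertical axis) against the deposited difference (horizontal axis), both first set minus second set. The line marks equality and the grey band differences under 0.1, which holds 11 exons, both Rtn3 exons among them, while Ccdc88c, Rtn4, Wnk1 and Arhgef1 lie on the line.

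Some long exons differed by less than 10 percentage points with very small FDR values. Ptprf encodes a receptor tyrosine phosphatase of epithelial junctions, and its 579-nt exon was at 89.3%, 89.9% and 87.6% in the first set and 97.4%, 99.4% and 98.6% in the second, a deposited difference of -0.095 with an FDR listed as 0 in the authors' table. Ndufv3, a subunit of respiratory complex I, has a 1092-nt coding exon at 5.70%, 4.93% and 3.58% against 7.93%, 7.95% and 10.4%, with a deposited difference of -0.04 and an FDR of 2.81e-12 in the authors' table on 15470 skipping reads. Ceacam1, an epithelial adhesion receptor, has a 1589-nt exon of a non-coding transcript at 99.02%, 96.7% and 99.4% against 93.6%, 89.1% and 93.9%, with a deposited difference of 0.062 and an FDR of 3.24e-12 in the authors' table. That exon occurs in an annotated transcript with a retained intron and spans 3 annotated introns, so its reads can come from other transcripts of the gene. The sets did not overlap in Ptprf, Ndufv3 or Ceacam1.

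Several long exons known for use in nerve or muscle had an inclusion under 3%, and none of the known long exons listed here was called. Of a list of 14 genes with known long alternative exons, 9 had a member, with 16 exons in all. None of the 16 was called, against 2.45% of long and 1.91% of all exons, and none passed the FDR alone in the authors' deposited table, against 4.84% and 4.3%. With so few exons, 0 is near those shares. An unadjusted p-value below 0.05 was listed for 1 in the authors' deposited table, and their median absolute difference was 0.008, the same as for all long exons. Ank3 encodes ankyrin G, whose giant exon is used in neurons. That exon, of 7674 nt, had an inclusion of 0.830% to 1.94% by library, on 271 skipping reads. The 783-nt exon of Sorbs2, an actin-linked adaptor, was at 1.57% over all libraries, and the overlapping 711-nt and 759-nt exons of Mapt, the microtubule protein tau, were at 2.75% and 2.33%. The Sorbs2 exon had 16 inclusion reads and matches no annotated exon end to end, and whether it is the known long exon of that gene was not tested. Naca is outside the list, but its 5916-nt exon, known from the muscle form skNAC, is one of the 3 longest members and was at 0.201% to 0.383% by library on 46722 skipping reads. The longest member, the 8367-nt exon of Unc13b, a vesicle priming protein, had 3 skipping reads in all and cannot be placed, at values from 20.2% to 100%.

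The other exons of the list ranged from low to full inclusion. A 679-nt Ank3 exon was at 99.6% over all libraries and a shorter exon with the same start at 26.7%, and a 327-nt exon of Dst at 99.6%. The 679-nt Ank3 exon spans 1 annotated intron, so its reads can come from other transcripts of the gene. A 2550-nt Ank3 exon was at 0.880%. It overlaps the 7674-nt giant exon and shares its 271 skipping reads, so it is not separate evidence. A 5292-nt exon of Dst had 1 skipping read. Mki67 encodes the Ki-67 protein of dividing cells, and its 960-nt exon was at 74.4%, 76.8% and 81.6% in the first set and 86.3%, 82.5% and 78.7% in the second, with overlap and an FDR of 1 in the authors' deposited table. The 3315-nt exon of Brca1, a DNA repair protein, was at 88.5% to 97.8%, both Casp8ap2 exons at 94.8% and 99.6% over all libraries, and the 3381-nt exon of Plec, a cytoskeletal linker, at 98.7%. The Brca1 exon spans 2 annotated introns, and 1133 nt of it overlap the first or last exon of another transcript. The linker gene Dst had a 2703-nt exon at 14.5%, 11.7% and 12.5% against 24.1%, 18.7% and 16.5%. Its sets did not overlap, but the FDR was 0.167 in the authors' deposited table. The 2121-nt exon of Nin, which encodes the centrosomal protein ninein, ranged from 8.88% to 57.6% within the first set alone, and its difference of 0.158 had an FDR of 0.882 in the authors' deposited table.

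Splicing factors were looked at both as hosts of long exons and by level. Among 18 genes for exon recognition and PTB-family factors, 5 hosted a long exon and 0 of these 5 were called, against 2.45% of all long exons, a share that gives less than 1 exon in 5. The 456-nt exon of Srsf3 and the 460-nt exon of Srsf7, the decay-inducing exons through which these factors limit their own levels, were at 22.0% and 46.2% over all libraries, with differences of 0.015 and -0.023 and an FDR of 1 in the authors' deposited table. The 1360-nt exon of Snrnp70, which encodes a U1 snRNP protein, was at 13.96%, 15.8% and 17.5% against 15.8%, 12.3% and 10.02%, a difference of 0.031 with an FDR of 0.0416 in the authors' deposited table. The long exons of Matr3 and Hnrnpl, which encode RNA-binding proteins, were at 93.1% and 90.6%. By gene level, Ptbp1 was the only one of the 18 called in the authors' deposited table, at 230.0 FPKM in WT and 122.8 FPKM in PTBP1_KO (log2 change -0.91, q-value 0.0125). Ptbp2 was at 19.0 and 35.9 FPKM with a q-value of 0.156, and the median log2 change of the 18 was -0.02.

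The genes that host long exons were rarely called by level. FPKM, fragments scaled by transcript length and library size, is given once per genotype in the authors' deposited table. Of 1222 host genes, 1213 were tested and 2 passed a q-value of 0.05 (0.165%), against 83 of all 15460 tested genes (0.537%). They were Trim72, a membrane repair protein, at 5.50 FPKM in WT and 12.5 FPKM in PTBP1_KO (log2 change 1.18), and Dqx1, a helicase-like protein, at 20.5 and 13.3 FPKM (log2 change -0.62), each with a q-value of 0.0125. Their long exons were at 99.7% and 95.5% inclusion with deposited differences of -0.004 and -0.003 in the authors' table. Of the 34 genes with a called long exon, 0 passed the q-value, and the smallest q-value was 0.155 in the authors' deposited table. With so few genes, 0 is near the 0.537% of all tested genes. An unadjusted p-value below 0.05 was listed there for 3 of the 34 (Ccdc88c, Slco2b1 and Zfp62), against 29 of the 1213 tested host genes and 672 of all 15460 tested genes.

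Markers of other cells in the preparation were measured in the same gene table. The 8 crypt epithelium markers summed to 5491 FPKM in WT and 6781 FPKM in PTBP1_KO, and 0 were called by the authors' q-value or had an unadjusted p-value below 0.05. Without Lyz1, which was at 1471 and 2470 FPKM, the other 7 summed to 4021 and 4311 FPKM. The 7 lymphocyte markers were all higher in PTBP1_KO, at 100.5 and 180.7 FPKM in sum, and 3 of them (Cd8a, Gzma and Gzmb) passed the q-value in the authors' deposited table. Markers of myeloid cells (3 genes, 2.58 and 3.11 FPKM), stroma and muscle (6 genes, 2.13 and 1.56 FPKM) and enteric neurons (3 genes, 1.06 and 1.51 FPKM) were low, none of them passed the q-value, and no marker was at 0. By unadjusted p-value in the authors' deposited table, Col1a1, Col1a2 and Col3a1 had log2 changes of -1.34, -1.13 and -1.19 (p-values 0.0133, 0.0055 and 0.00215) and Ret one of 0.70 (p-value 0.00935), while Acta2 was at 0.115 and 0.223 FPKM. In bulk RNA, more lymphocytes and more RNA from each cannot be told apart, and the part of these cells in the exon differences was not tested.

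The words marked in the printed sequences were counted over all long exons. Cytosine and thymine made up a median of 48.7% of long exons, 47.3% of shorter ones and 48.6% of the called long ones. In the first 100 nt of the exon, on the transcript strand, TCTT was present in 33.2% of 1411 long exons with sequence, 33.2% of 17960 shorter exons of at least 100 nt and 8 of 34 called long exons (23.5%). CTCT was present in 42.3%, 38.7% and 41.2%, and TTCT in 40.3%, 37.5% and 44.1%. By direction, the first 100 nt held TCTT in 6 of 20 exons higher in the first set and 2 of 14 higher in the second, CTCT in 10 and 4, and TTCT in 8 and 7. In the last 100 nt the shares were 31.3%, 34.2% and 29.4% for TCTT, 38.6%, 38.9% and 17 of 34 for CTCT, and 37.6%, 37.1% and 52.9% for TTCT, and by direction 5 of 20 and 5 of 14 for TCTT, 11 and 6 for CTCT, and 8 and 10 for TTCT. The words overlap one another, only the transcript strand was searched, a match does not show binding, and the introns, where PTBP1 mostly binds, were not analysed here. In the printed stretches the Rtn4 and Rtn3 exons, which differed in opposite directions, each hold several runs with all 3 words, as does the Ccdc88c exon. The Wnk1 stretch holds fewer, the Arhgef1 stretch only CTCT, and the Spata13 stretch none.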

How the data were processed

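Values are the authors' deposited tables. Per the submitters' processing notes, the tools were STAR 2.6.1d, Cuffdiff, Cufflinks, Trimmomatic 0.38 and bcl2fastq 2.20, and the build was mm10. The skipped-exon table has the MATS layout, whose version is not given in the sources used here. It holds inclusion and skipping reads of 6 libraries, and the authors' p-value, FDR and inclusion level difference, a score from -1 to 1, per the file headers. The gene table holds the authors' FPKM for each group with a log2 fold change, p-value and q-value, and gives no spread between libraries or depth.

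Inclusion was recomputed for each library from reads divided by the deposited effective lengths. The recomputed differences lay within 0.00109 of the deposited ones. The 2 deposited columns of inclusion levels for each library were not used. The planned test on reads was not run, since the headers do not tie libraries to genotypes. An exon was called at an FDR below 0.05 and an absolute difference of at least 0.1 in any event with a mean of at least 20 reads, and is shown by its called event or else the event with most reads. Intervals are exact (Clopper-Pearson, 95%). Exons were matched to GENCODE M21 transcripts by position. Members and lists were chosen with earlier results of these data known. Named exons were the 8 with the largest difference of each sign, 1 a gene, the 3 with most reads, the 3 longest, the 3 not called with the smallest FDR and those of the known long-exon list. The other called exons were named after their values were seen. Alternatives were other limits on difference, FDR, reads, length and event, and leaving out each library. Computation ran on matplotlib 3.10.9, scipy 1.17.1, pandas 2.3.3 and numpy 2.4.6 under Python 3.11.15, and the scripts were tested on simulated data.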

Additional observations from a re-analysis of the deposited data

How the results depend on the processing

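The count of 35 called long exons became 55 with a minimum difference of 0.05, 19 with 0.2, 69 by the FDR alone and 23 at an FDR below 0.01. It was 13 for exons of at least 500 nt. In settings chosen after seeing the data, it was 18 for exons with no annotated intron inside and no overlap with a first or last exon, and 19 with at least 30 skipping reads and 24 with libraries of 0 to 2 skipping reads set to 3. It lay between 25 and 49 with other read minimums, a length limit of 250 nt or the event with most reads, and between 32 and 36 without each library in turn, when the share higher in the first set was 54.5% to 60.6%. Without a library, or with skipping reads set to 3, only the difference was recomputed. The FDR stayed that of all 6 libraries, so these counts do not show whether the FDR would hold. The share higher in the first set ran from 46.2% (at least 500 nt) to 68.4% over all settings. Of the 16 named called exons, 4 (D330041H03Rik, Ctbs, Rtn3 and Mpv17) were left out by a mean of 50 reads, 3 (Slc47a1, D330041H03Rik and Ctbs) by 20 reads in every library, and 3 (Naip3, G2e3 and Prepl) by a difference of 0.2. The cause of these changes is the limit itself. The host gene count stayed at 2 with a minimum of 1 FPKM. The windows around the exons were not run, since no genome sequence was used here. No paired analysis was possible because the table's columns carry no replicate numbers of the labels. Few skipping reads limit the long exons, with a median of 4 over all libraries, and shorter exons about as much, with 5. In all reads the long exons were not the thinner ones, with a median of 449.9 a library against 268.7.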
